A study of Rattus norvegicus with 32 samples.

Results

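The proteasome subunit genes were followed in C6 rat glioma cells exposed to Angiotensin II (Ang II). The members were picked by symbol and not by their values, although the family itself was chosen with earlier results of these data known. Every transcript probe of the array was taken whose gene symbol begins with Psma, Psmb, Psmc, Psmd, Psme, Psmf or Psmg and ends in a number, which gave 45 genes on 49 probes, out of 26583 gene names on 30367 probes. Of these, 18 genes were counted by symbol as core (Psma and Psmb), 24 as regulatory (Psmc, Psmd and Psme) and 3 as assembly chaperones (Psmg). The genes counted as regulatory include Psmd5 and Psmd10, which act in assembly. The names Psma8, Psmf1 and Psmg3 were looked for and were not among the gene names of the array. Psmb11, Psmd9, Psme4 and Psmg4 have more than 1 probe and the others have 1.

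Each time point had 4 groups of cells from the same established line, in which glial tumour cells grow as a culture without the vessels, immune cells and neurons of a brain tumour. Control cells received no peptide and no antagonist. Cells of the Ang II group received 100 nM Ang II. Cells of the Ang II+Los group were given 10 µM Losartan, a blocker of the AT1 receptor, for 30 min and then 100 nM Ang II. Cells of the Ang II+PD123319 group were given 10 µM PD123319, a blocker of the AT2 receptor, for 30 min and then 100 nM Ang II. RNA was taken at 3 h or at 6 h, with 4 arrays in each of the 8 groups and 32 arrays in all. No group received an antagonist without Ang II. The study set Ang II against Control to ask what the peptide changes, and each antagonist group against Ang II to ask which receptor is involved.

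The proteasome is the protease that degrades ubiquitin-tagged proteins. Its core particle is a barrel of stacked rings, in which outer alpha rings (Psma) gate the entry and inner beta rings (Psmb) carry the proteolytic sites of Psmb5, Psmb6 and Psmb7. Immune signals such as interferon can bring in Psmb8, Psmb9 and Psmb10 in place of these 3 subunits, which alters the peptides available for antigen presentation. The 19S regulatory particle caps the barrel. Its base holds a ring of ATPases (Psmc) that unfolds substrates. The Psmd genes encode further subunits, some of which bind ubiquitin chains or, like Psmd14, cut them off, and also assembly factors such as Psmd5. Psme proteins are alternative caps, and Psmg proteins help to build the alpha ring. In mammalian cells the transcription factor Nfe2l1, also called NRF1, raises many subunit genes together when proteasome activity falls.

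The sequences upstream of these genes show which of the elements known from other proteasome and interferon-response genes are present in rat. RefSeq promoters of the GRCr8 assembly, from 250 bases before to 50 bases after the transcription start, were at hand for 40 of the 45 genes and were searched on both strands. The core of the antioxidant response element, TGACNNNGC, was found in 8 of the 40 promoters, against 12.1% of 33469 promoters in the table. The CCAAT box, CCAAT, was found in 19 of 40, against 37.5%. It was present in 11 of 16 core promoters and in 8 of 21 regulatory ones. The GC box, GGGCGG, was found in 29 of 40, against 33.1%. The core of the interferon-stimulated response element, TTTC followed by any 2 bases and a second TTTC, was found in 7 of 40, against 3.92%, and these were Psma4, Psmb3, Psmb8, Psmb10, Psmd7, Psme2 and Psmg4. An E2F-type site, TTTCCCGC, was found only in the promoter of Psmc4 among the 40, against 0.974%. In 3 places, matches to different motifs overlapped. A match is a description of the letters and not evidence of a bound factor. The 130 bases just before the start are printed for 4 genes whose levels are described below. All 4 lie on the minus strand and are written 5′ to 3′ in the direction of transcription. Capitals mark a CCAAT box in Psma1 (chr1:177887858-177887987) and Psma2 (chr17:55260442-55260571). They mark the antioxidant response element core in Psmb5 (chr15:32047380-32047509), and the interferon-stimulated response element core, found 2 times as its reverse complement, in Psmb10 (chr19:50743293-50743422).
Psma1: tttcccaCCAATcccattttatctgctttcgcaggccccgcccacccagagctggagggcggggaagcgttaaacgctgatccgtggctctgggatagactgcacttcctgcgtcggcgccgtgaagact
Psma2: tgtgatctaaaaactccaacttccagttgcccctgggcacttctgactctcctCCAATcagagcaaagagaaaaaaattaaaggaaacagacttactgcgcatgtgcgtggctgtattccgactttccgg
Psmb5: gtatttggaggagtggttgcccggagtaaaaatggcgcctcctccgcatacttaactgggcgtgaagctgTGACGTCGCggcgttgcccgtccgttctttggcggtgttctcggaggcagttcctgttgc
Psmb10: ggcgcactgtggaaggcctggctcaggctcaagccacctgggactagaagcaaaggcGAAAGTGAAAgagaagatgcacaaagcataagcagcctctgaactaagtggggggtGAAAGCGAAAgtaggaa

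Values are log2 intensities after normalization between the 16 arrays of a time point, so levels at 3 h and 6 h are not set against each other, nor is the level of 1 gene against that of another. Genes entered the test where, in 1 group or more, the scanner software called a probe well above background on each of the 4 arrays. This held for 44 members of 13628 genes tested at 3 h, and for all 45 members of 16441 genes at 6 h. The gene missing at 3 h was Psmb11, the thymus-specific beta subunit, which passed that background test on 2 of 16 arrays at 3 h and on 13 of 16 at 6 h with its brighter probe. The other Psmb11 probe passed it on 0 of 16 arrays at 3 h and on 1 of 16 at 6 h, and was left out at both times. No member was saturated. The 4 slides of 3 h and the 4 slides of 6 h were different, 8 in all, so time and slide cannot be told apart. Slides are numbered here by replicate number within a time. Each slide held 1 array of each group of its time in the same order, so treatment and position on the slide cannot be told apart. Differences were tested within slides with limma, and a call here is an unadjusted p under 0.05. After Benjamini-Hochberg adjustment over all genes no member had an adjusted p under 0.05 in any comparison. Of all genes, 224 (1.36%) had one for Losartan against Control at 6 h, 227 (1.38%) for PD123319 against Control at 6 h, and 0 (0%) in each of the other comparisons. The calls are therefore read against the share of all genes called, and the p-values printed beside single genes are the adjusted ones.

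Between 55.9% and 64.7% of spots were well above background on the arrays of 3 h, and between 64.2% and 79.8% on those of 6 h. Of 9 glioma or glial markers, 7 were above background on all 32 arrays, whereas Gfap, the astrocyte filament protein, was so on 0 of 16 at 3 h and 2 of 16 at 6 h. The leukocyte marker Ptprc, the endothelial markers Pecam1 and Tek and the neuronal marker Syt1 were above background on no array. The endothelial markers Cdh5 and Kdr were so on 12 and 6 of 16 arrays at 3 h and on 16 and 11 of 16 at 6 h. Aif1, Itgam and Cd68 of the microglial list, Snap25 of the neuronal list and Des of the muscle list were above background on all 32. Csf1r of the microglial list was so on 12 of 16 at 3 h and 16 of 16 at 6 h. Acta2 and Myh11 of the muscle list were each so on 15 and 16, and Rgs5 of that list on 0 and 2. Syp of the neuronal list was so on 1 and 5. A part of these markers in any result was not tested. RNA came from whole cultures, so fewer cells that express a gene and less of its RNA per cell cannot be told apart.

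At 3 h of Ang II, 4 of 44 proteasome genes were called higher and none lower, against 5.35% and 7.37% of all genes. The 4 were Psmd5, Psma7, Psmd14 and Psmd1. The members' median log2 fold change was 0.07, against 0.0022 over all genes tested, and 32 of 44 were above 0, against 50.4%. The members' median and the count above 0 depended on the scaling, but the members' median stayed above that over all genes. With the 75th percentile of each array subtracted, the median was 0.02 and 23 of 44 were above 0. With quantile normalization the members' median was -0.00046 and 22 of 44 were above 0, while the median over all genes was -0.054 and -0.034, respectively. Higher levels on all 4 slides were found for 7 members (15.9%), against 11.8% of all genes, and lower levels on all 4 for none, against 12.5%. In no member did the 4 Ang II arrays lie wholly above or below the 4 Control arrays, which was the case for 0.426% and 0.873% of all genes.

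**Figure D1:**
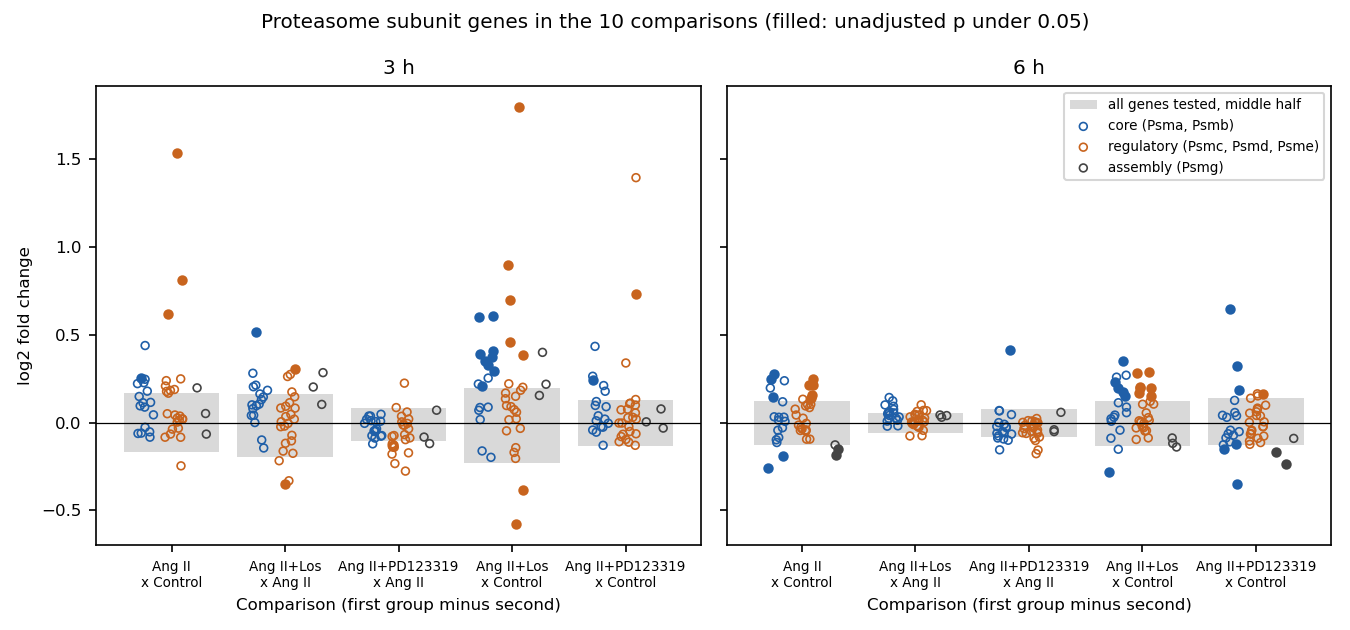
Log2 fold changes of the proteasome subunit genes (points) in 10 comparisons, with core genes in blue, regulatory genes in orange and Psmg genes in gray. Filled points have an unadjusted limma p under 0.05, and the gray band holds the middle of all genes tested, from the lower to the upper quartile. Most points lie inside or close to the band, and the highest at 3 h are those of Psmd1 and Psmd5.

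Psmd5, an assembly chaperone of the 19S base, had the lowest p at 3 h. Its log2 levels on slides 1 to 4 were 8.19, 8.59, 7.88 and 8.50 in Control and 9.71, 9.78, 8.43 and 8.49 in Ang II. Slides 1 to 3 were higher with Ang II, and on slide 4 the levels were nearly equal, so that the groups overlapped. The log2 fold change was 0.81 ± 0.24 (SE) with adjusted p = 0.32. Of 13 other limma settings, the call was lost only without the slide as a block, but neither the paired nor the unpaired t-test called this gene. In the antagonist groups the levels were 10.23, 9.52, 8.32 and 8.67 with Losartan and 9.499, 9.44, 8.49 and 8.66 with PD123319. Against Control these gave 0.90 (adjusted p = 0.18) and 0.73 (adjusted p = 0.52). Against Ang II alone they gave 0.08 (adjusted p = 0.87) and -0.08 (adjusted p = 1), so levels with either antagonist were close to those with Ang II alone and no difference was detectable with 4 arrays a group. At 6 h Psmd5 measured 9.98, 9.49, 9.85 and 9.55 in Control and 10.32, 9.72, 10.01 and 9.67 in Ang II. It was higher on every slide, by 0.21 ± 0.07 with adjusted p = 0.15, and was not called without replicate 1 (0.17). The probe of Psmd5 lies at chr3:13862387-13862446 in the rn4 build used by the array design.

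Psmd14, the 19S subunit that removes ubiquitin from substrates, measured 9.74, 9.68, 8.88 and 9.44 in Control and 10.01, 11.21, 9.37 and 9.63 in Ang II at 3 h. Every slide was higher with Ang II and slide 2 stood out. The log2 fold change was 0.62 ± 0.26 (adjusted p = 0.38). The call was lost without replicate 2 (0.31) and without replicate 3 (0.66). At 6 h the levels were 10.45, 10.21, 10.46 and 10.45 in Control and 10.55, 10.37, 10.71 and 10.55 in Ang II. The change at 6 h was again in the same direction on every slide, but smaller, at 0.16 ± 0.07 (adjusted p = 0.22). Leaving out any 1 of the 4 replicates ended this call, with values from 0.12 to 0.17. The Psmd14 probe matches chr3:43696292-43699023 (rn4), a span wider than the probe, as for a probe across an intron.

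Psmd1, the large scaffold of the 19S base, had the greatest fold change of the members at 3 h, and it rested on 1 array. Its levels were 13.45, 9.26 and 12.99 on slides 1 to 3 in Control, with no value on slide 4, and 13.50, 13.62, 13.09 and 13.63 in Ang II. The low array was Control replicate 2. The fit over the remaining arrays gave 1.54 ± 0.68 (adjusted p = 0.38), and without replicate 2 it gave 0.12. Without replicate 4 the value was 1.504, and neither of these was called. Psmb3, a structural beta subunit, was also low on that array, at 11.02 against 12.46, 12.25 and 12.27 in the other Control arrays and 12.63, 12.55, 12.48 and 12.10 in Ang II. Its log2 fold change of 0.44 ± 0.25 did not pass the test (adjusted p = 0.45). Without replicate 2 only 1 member was called at 3 h, while 39 of 44 were above 0.

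**Figure D2:**
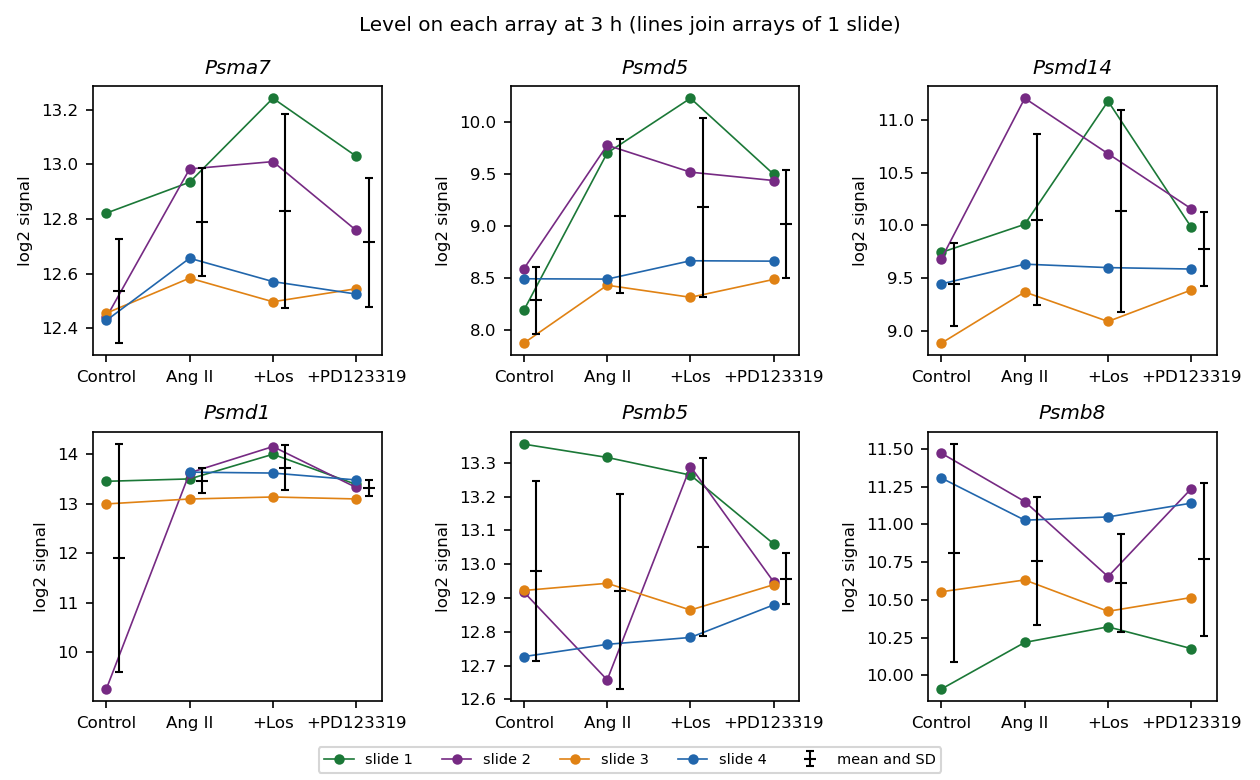
Log2 levels on each array at 3 h for Psma7, Psmd5, Psmd14, Psmd1, Psmb5 and Psmb8 in the 4 groups, with lines joining the arrays of a slide and marks for the mean and SD. Psmd5 was higher with Ang II on slides 1 to 3, and the Control array of slide 2 stood low for Psmd1 at 9.26.

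The alpha ring genes leaned the same way at 3 h. All 7 had a log2 fold change above 0, from 0.10 to 0.25 with a median of 0.15, and this held for 7 of 7 under the 75th percentile, quantile and normexp settings. Only Psma7 was called. It measured 12.82, 12.44, 12.46 and 12.43 in Control and 12.93, 12.98, 12.58 and 12.66 in Ang II. Control replicate 1 lay apart from the other Control arrays, and every slide was higher with Ang II, by 0.25 ± 0.11 (adjusted p = 0.38). The call was lost without replicate 2 (0.16), without replicate 3 (0.29) and without replicate 4 (0.26). It was also lost under the 75th percentile and quantile settings and with the deposited log2 values. Without the slide as a block, or with only the arrays of these groups, Psma7 was not called either. Psma1 measured 12.53, 12.14, 11.77 and 12.07 in Control and 12.62, 12.79, 11.97 and 12.11 in Ang II, which was higher on every slide by 0.25 ± 0.12 but missed the threshold (adjusted p = 0.41).

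The other parts of the particle gave few calls at 3 h. Among the 14 Psmd genes, which include the assembly factors Psmd5 and Psmd10, 3 were called higher, Psmd5 among them. The median of the 14 was 0.18 and 10 were above 0. The 6 base ATPase genes were all above 0 with a median of 0.05 and no call, but only 2 of 6 were above 0 under the 75th percentile or quantile scaling. Under those scalings the median over all genes was itself below 0. Psmc3, the ATPase with the lowest p, measured 12.50, 12.47, 11.50 and 12.50 in Control and 12.73, 12.66, 11.81 and 12.44 in Ang II. Slide 3 was low in both groups, and the difference of 0.17 was not called (adjusted p = 0.56). None of the 4 structural beta, 3 catalytic beta, 3 immunoproteasome, 4 activator or 3 Psmg genes was called. For Psmb2, a structural beta subunit, 12.60, 12.07, 12.37 and 12.64 in Control stood against 12.61, 12.63, 12.48 and 12.68 in Ang II. Slide 2 differed by 0.56 and the others by little, for a fitted change of 0.18 (adjusted p = 0.57). Psme2, part of the interferon-inducible cap, measured 13.72, 13.12, 12.53 and 13.25 in Control and 13.63, 12.68, 12.60 and 13.39 in Ang II, with slides of both signs (-0.08). Psmg2, a chaperone of alpha ring assembly, measured 8.10, 8.47, 8.43 and 8.24 in Control and 8.20, 9.21, 8.48 and 8.14 in Ang II, where slide 2 again moved most (0.20, adjusted p = 0.68).

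At 6 h of Ang II, 8 of 45 proteasome genes were called higher and 4 lower, against 10.6% and 10.9% of all genes. Those higher were Psma1, Psma2, Psmb5, Psmc4, Psmd3, Psmd5, Psmd14 and Psme3, and those lower were Psmb8, Psmb10, Psmg1 and Psmg4. The members' median was 0.02 against -0.0058 over all genes, and 25 of 45 were above 0, against 48.7%. Higher levels on all 4 slides were found for 12 members (26.7%), against 12.2% of all genes, and lower levels on all 4 for 8 members (17.8%), against 14%. Again no member's groups were free of overlap, against 0.815% and 1% of all genes. The count of calls fell to 5 without replicate 1, and to 2 without replicate 2 or without replicate 4, and was 10 without replicate 3. Without the slide as a block limma called none of the 12, and the unpaired t-test called Psmg1 alone.

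Psma1, an alpha ring subunit, had the lowest p at 6 h. It measured 12.75, 12.34, 12.73 and 12.50 in Control and 12.81, 12.69, 13.07 and 12.74 in Ang II. Each slide was higher with Ang II, although the slides differed among themselves as much as the groups did. The log2 fold change was 0.25 ± 0.07 with adjusted p = 0.12, and of 13 other limma settings the call was lost only without the slide as a block. With Losartan the levels were 12.77, 12.80, 12.95 and 12.71, and with PD123319 they were 12.79, 12.61, 13.08 and 12.57. Both groups were above Control, by 0.23 (adjusted p = 0.11) and 0.18 (adjusted p = 0.17), and differed from Ang II by -0.02 (adjusted p = 1) and -0.07 (adjusted p = 0.93). The Psma1 probe lies at chr1:172240234-172240293 (rn4), and the printed CCAAT-containing stretch is upstream of this gene. Without replicate 2 the value for Losartan was 0.15 and was not called.

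Psma2, the other alpha ring gene called at 6 h, measured 11.95, 10.97, 11.58 and 11.00 in Control and 11.99, 11.49, 11.83 and 11.32 in Ang II. Slides 2 and 4 had the lower levels and the wider gaps. The fold change was 0.28 ± 0.11 (adjusted p = 0.18). It was lost without replicate 2 (0.20), without replicate 3 (0.29) and without replicate 4 (0.27). All 7 alpha ring genes were above 0 at 6 h, from 0.01 to 0.28 with a median of 0.12. This held for 7 of 7 under quantile normalization, 6 of 7 under normexp and 5 of 7 under the 75th percentile.

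A catalytic subunit and its interferon-inducible counterpart were called in opposite directions at 6 h, and the difference between the genes was not tested. Psmb5, which carries the chymotrypsin-like site, measured 13.14, 12.82, 13.09 and 12.86 in Control and 13.25, 12.98, 13.15 and 13.12 in Ang II. It was higher on every slide, by 0.15 ± 0.06 (adjusted p = 0.21). Psmb8, which replaces Psmb5 in the immunoproteasome, measured 10.73, 11.83, 10.88 and 11.94 in Control and 10.68, 11.38, 10.83 and 11.45 in Ang II. It was lower on every slide, by a small margin on slides 1 and 3 and by a wider one on slides 2 and 4, and the log2 fold change was -0.26 ± 0.10 (adjusted p = 0.18). Each of these calls was lost without replicate 2, at 0.15 for Psmb5 and -0.20 for Psmb8. They were lost without replicate 4 too, at 0.11 and -0.18, and Psmb5 also without replicate 1, at 0.16. Both calls were lost without the slide as a block and with only the arrays of these groups. The Psmb5 call was lost under the 75th percentile and normexp settings as well. At 3 h neither was called. Psmb5 was then at 13.36, 12.92, 12.92 and 12.73 in Control and 13.32, 12.66, 12.94 and 12.76 in Ang II (-0.06, adjusted p = 0.86). Psmb8 was at 9.91, 11.47, 10.55 and 11.31 in Control and 10.22, 11.15, 10.63 and 11.03 in Ang II, with slides 1 and 3 higher and slides 2 and 4 lower (-0.05, adjusted p = 0.9). The probes of the pair lie at chr15:32690134-32690193 and chr20:4787980-4788039 (rn4).

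The 2 further catalytic pairs showed smaller differences. Psmb6, with the caspase-like site, measured 10.97, 10.85, 10.89 and 10.92 in Control and 10.89, 10.84, 10.75 and 10.70 in Ang II at 6 h, lower on every slide but not called (-0.11, adjusted p = 0.26). Its counterpart Psmb9 measured 10.90, 10.31, 10.83 and 10.65 in Control and 10.80, 10.29, 10.81 and 10.45 in Ang II, with slide 4 the furthest apart (-0.09, adjusted p = 0.46). Psmb7, with the trypsin-like site, measured 11.82, 11.68, 12.01 and 11.57 in Control and 11.93, 11.72, 11.89 and 11.66 in Ang II, where slide 3 went against the others (0.03, adjusted p = 0.81). Its counterpart Psmb10 measured 12.64, 12.02, 12.08 and 12.26 in Control and 12.46, 11.83, 12.10 and 11.84 in Ang II. Slides 1, 2 and 4 were lower and slide 3 was level, and Psmb10 was called lower, at -0.19 ± 0.08 (adjusted p = 0.18). That call was lost without replicate 1 (-0.20), without replicate 2 (-0.19) and without replicate 4 (-0.12). The thymus gene Psmb11 was dim, at 3.99, 3.83, 3.51 and 3.28 in Control and 4.05, 3.93, 3.89 and 3.69 in Ang II. Psmb8 and Psmb10 both carry the interferon-stimulated response element core in the promoter searched, as do 5 other members, of which Psmg4 was called lower at 6 h as well and Psma4, Psmb3, Psmd7 and Psme2 were not called.

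At 3 h no gene of these pairs was called. Psmb6 measured 10.82, 10.79, 10.89 and 10.58 in Control and 10.86, 10.85, 11.00 and 10.54 in Ang II (0.04, adjusted p = 0.86). Psmb9 measured 10.55, 10.11, 9.01 and 10.46 in Control and 10.43, 9.81, 9.24 and 10.55 in Ang II (-0.03, adjusted p = 0.96). Slide 3 was low in both groups of Psmb9, and the same slide was lowest for Psmb10, at 12.83, 12.34, 11.47 and 12.15 in Control and 12.91, 12.28, 11.49 and 12.47 in Ang II (0.09, adjusted p = 0.72). Psmb7 had no value on Control array 4 and measured 11.63, 11.37 and 10.91 on the others, against 11.61, 11.07, 11.12 and 11.18 in Ang II (-0.06, adjusted p = 0.84).

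**Figure D3:**
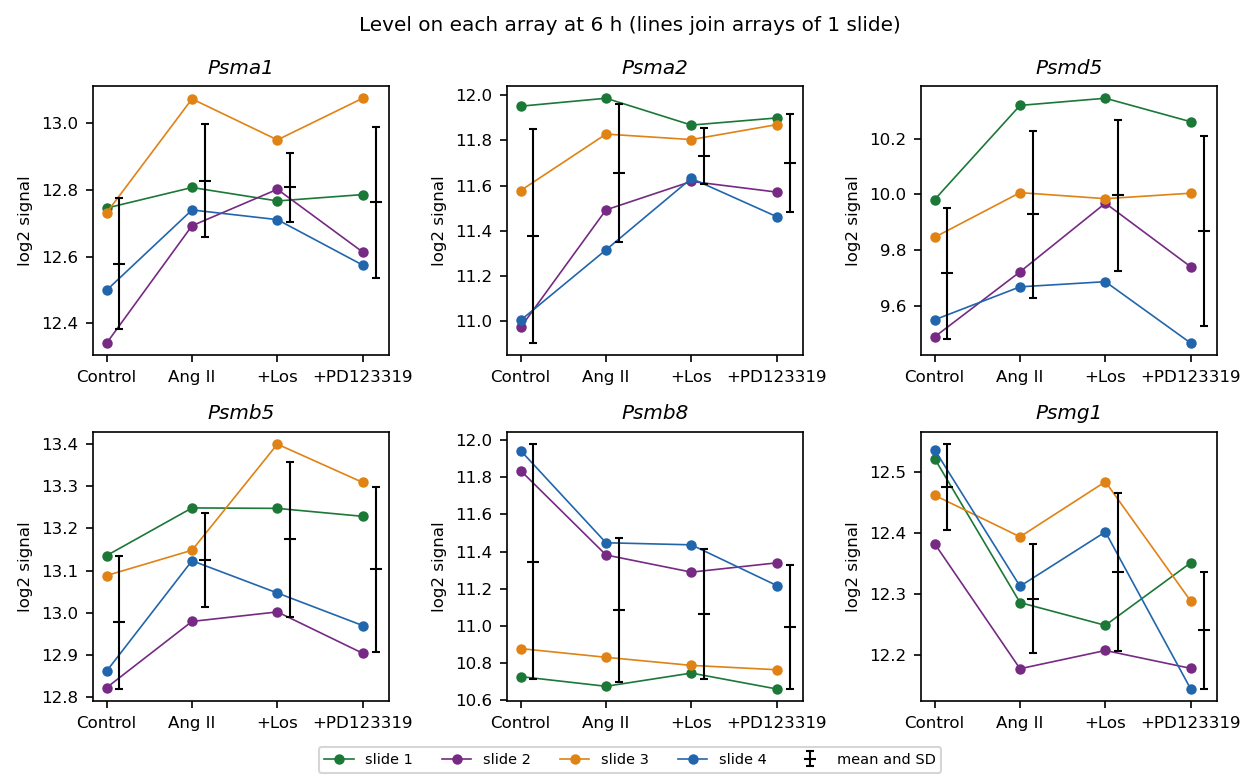
Log2 levels on each array at 6 h for Psma1, Psma2, Psmd5, Psmb5, Psmb8 and Psmg1 in the 4 groups, with lines joining the arrays of a slide and marks for the mean and SD. Psma1 was higher and Psmg1 lower than Control on every slide of the Ang II group, and Psmb8 was split between slides 2 and 4 (high) and slides 1 and 3 (low) in every group.

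Of the Psmd genes, assembly factors included, 3 of 14 were called higher at 6 h with a median of 0.09, and 10 were above 0. Besides Psmd5 and Psmd14 this was Psmd3, a subunit of the lid, at 10.09, 9.96, 10.65 and 9.92 in Control and 10.31, 10.37, 10.65 and 10.27 in Ang II. Slide 3 was level and the other slides were higher, for a change of 0.25 ± 0.08 (adjusted p = 0.14). The call was lost without replicate 2 (0.19) and without replicate 4 (0.21). Of the 6 base ATPases only Psmc4 was called, at 10.81, 10.66, 10.91 and 10.61 in Control and 11.04, 10.77, 10.95 and 10.80 in Ang II, and the median of the 6 was -0.02. Psmc4 was higher on every slide, by 0.14 ± 0.06 (adjusted p = 0.23). Without replicate 1, 2 or 4 the call was lost, at 0.11, 0.15 and 0.13. It was also lost under the 75th percentile and normexp settings and without the filter on dim probes. Without the slide as a block, or with only the arrays of these groups, Psmc4 was not called either.

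Among the activators, Psme3, which forms the nuclear PA28 gamma cap, measured 9.46, 9.76, 9.73 and 9.39 in Control and 9.77, 9.96, 9.80 and 9.67 in Ang II at 6 h. It was higher on every slide, by 0.22 ± 0.08 (adjusted p = 0.18). Leaving out replicate 2 (0.22) or replicate 4 (0.19) ended the call. The interferon-inducible Psme2 measured 13.73, 13.22, 13.64 and 13.37 in Control and 13.61, 13.20, 13.64 and 13.30 in Ang II, with differences close to 0 on slides 2 and 3 (-0.05, adjusted p = 0.69). Psme4, the PA200 cap, has 2 probes that disagreed, at -0.07 and 0.28.

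All 3 Psmg genes were below Control on every slide at 6 h, with a median of -0.15, and they were below 0 under the 75th percentile, quantile and normexp settings as well. Psmg1 measured 12.52, 12.38, 12.46 and 12.54 in Control and 12.29, 12.18, 12.39 and 12.31 in Ang II. The highest Ang II array only just exceeded the lowest Control array, and the change was -0.18 ± 0.07 (adjusted p = 0.16). Leaving out replicate 1, 2 or 4 ended the call, at -0.17, -0.18 and -0.17. Psmg4 measured 10.91, 11.18, 10.51 and 11.28 in Control and 10.71, 11.05, 10.50 and 11.04 in Ang II, for a change of -0.15 ± 0.06 (adjusted p = 0.21) with both of its probes lower, at -0.13 and -0.16. Its call was lost without replicate 1, 2 or 4 too, at -0.13, -0.15 and -0.12. The Psmg4 call was also lost under the 75th percentile, quantile and normexp settings. Without the slide as a block, or with only the arrays of these groups, it was lost as well. Psmg2 measured 8.63, 8.77, 8.62 and 8.94 in Control and 8.49, 8.66, 8.48 and 8.82 in Ang II. Its 4 slide differences lay between -0.15 and -0.12, but it was not called (-0.13, adjusted p = 0.29).

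**Figure D4:**
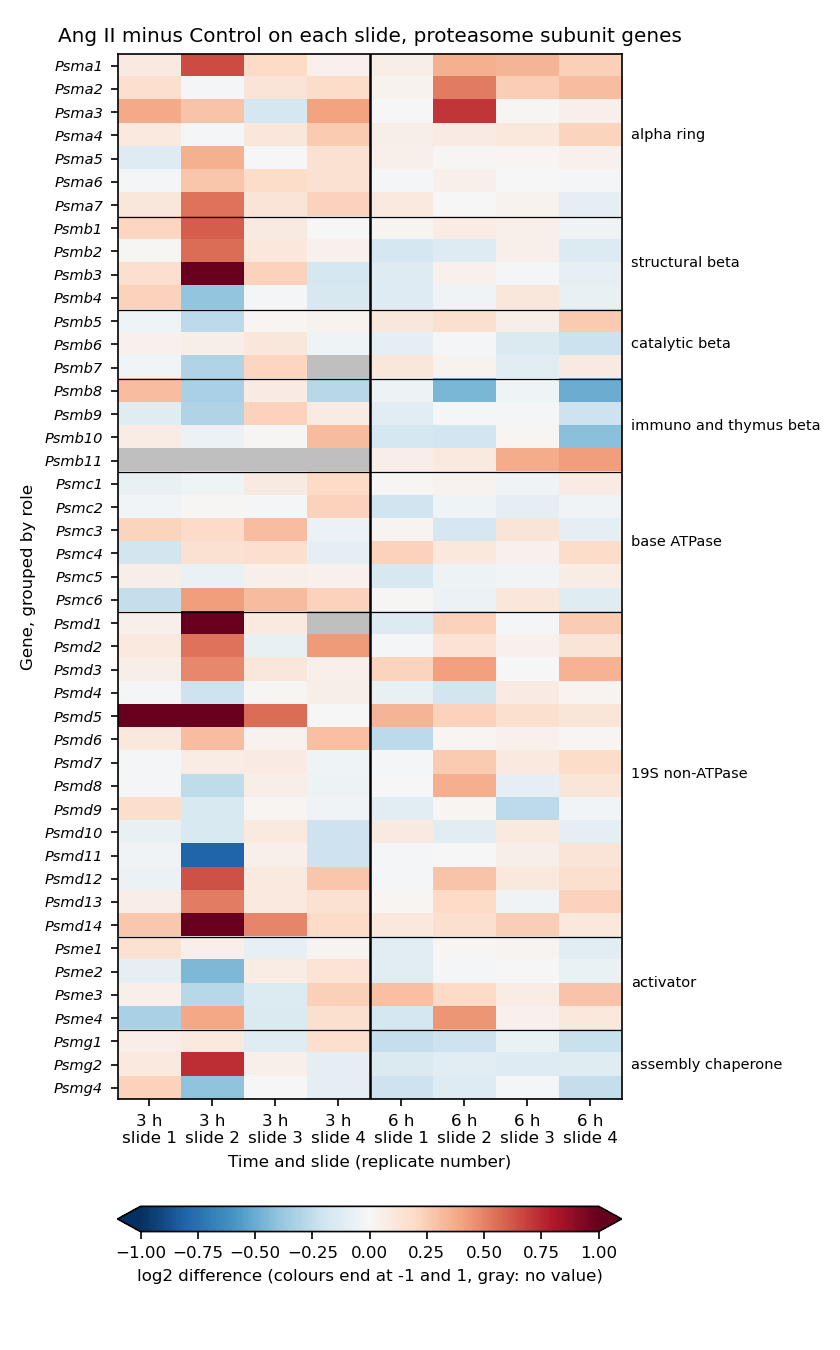
Ang II minus Control log2 difference on each of the 4 slides of 3 h and the 4 different slides of 6 h, for the 45 genes ordered by role. Colours end at -1 and 1, and gray marks a missing value. At 6 h the Psmg genes were lower and several alpha ring genes higher on every slide, and the deepest colours at 3 h were on slide 2.

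The Ang II difference at 6 h was set against that at 3 h in 1 model. Of 44 members, 4 had a p under 0.05, against 7.19% of all genes, and none had an adjusted p under 0.05. The change was lower at 6 h for Psmd5 (-0.60, adjusted p = 0.67), Psmb10 (-0.28, adjusted p = 0.67), Psmg1 (-0.23, adjusted p = 0.69) and Psmd6 (-0.23, adjusted p = 0.68). Psmg1 was at 0.05 at 3 h and -0.18 at 6 h, and Psmd5 was at 0.81 and 0.21. Psmb8 and Psma1, whose change at 6 h was called and at 3 h was not, were not among the 4.

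Adding Losartan before Ang II gave few differences from Ang II alone. At 3 h, 2 of 44 members were called higher and 1 lower, against 4.89% and 6.03% of all genes, and the members' median was 0.08 against 0.0032. Psmd10, an assembly factor also known as gankyrin, measured 9.84, 9.78, 9.72 and 9.21 in Ang II and 10.13, 10.42, 9.83 and 9.38 in Ang II+Los, higher on every slide by 0.30 ± 0.12 (adjusted p = 0.43). Psma5 measured 11.86, 12.03, 11.68 and 11.997 in Ang II and 12.58, 13.30, 11.74 and 12.01 in Ang II+Los. Its difference of 0.51 ± 0.23 (adjusted p = 0.43) came from slides 1 and 2, with slides 3 and 4 nearly level. Psme3 measured 9.58, 9.32, 9.86 and 9.82 in Ang II and 9.03, 8.82, 9.73 and 9.59 in Ang II+Los, lower on every slide, at -0.35 ± 0.15 (adjusted p = 0.43). None of the 3 was called without replicate 1, at 0.31, 0.45 and -0.29, or without replicate 2, at 0.19, 0.26 and -0.30. The median of the members was 0.21 with the 75th percentile subtracted, beside 0.05 for all genes.

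At 6 h limma called no member for Losartan with Ang II against Ang II alone, beside 0.815% of all genes higher and 1.17% lower. The paired t-test that the series record names gave 3 members at an unadjusted p under 0.05, the unpaired one gave 2, and neither gave any after adjustment. The fold changes were small, from -0.08 for Psmd2, a scaffold of the 19S base (adjusted p = 1), to 0.14 for Psmb4 (adjusted p = 1). Psmb4, a structural beta subunit, measured 13.24, 13.07, 13.23 and 13.18 in Ang II and 13.25, 13.29, 13.42 and 13.34 in Ang II+Los. Its groups did not overlap, which was the case for 1 of 45 members and 0.134% of all genes, although on slide 1 the levels were almost equal. Of the members, 34 of 45 were above 0, against 49.5%, with a median of 0.03.

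Adding PD123319 before Ang II gave no call at 3 h by limma, against 2.1% of all genes higher and 0.888% lower. The paired t-test gave 3 members at an unadjusted p under 0.05 and none after adjustment. The lowest p among genes that were lower was that of Psmc2, a base ATPase, at 12.88, 12.72, 12.70 and 12.97 in Ang II and 12.76, 12.50, 12.61 and 12.68 in Ang II+PD123319. It was lower on every slide, at -0.18 (adjusted p = 1). Among genes that were higher it was that of Psmd11, a lid subunit (0.22, adjusted p = 1). Of 44 members 14 were above 0, against 44.7%, with a median of -0.05 beside -0.018 over all genes, and all 6 base ATPases were below 0.

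At 6 h, 1 of 45 members was called higher and none lower for PD123319 with Ang II against Ang II alone, beside 3.88% and 2.49% of all genes. The gene was Psmb11, at 4.05, 3.93, 3.89 and 3.69 in Ang II and 4.73, 4.60, 3.70 and 4.18 in Ang II+PD123319. Slide 3 went against the other slides, and the change was 0.41 ± 0.15 (adjusted p = 0.69). Psmb11 may have passed the background filter through the Ang II+PD123319 group, where its mean was highest. The call is therefore not support for a change. It was lost without replicate 1 (0.32), without replicate 2 (0.33) and without replicate 4 (0.39). It was lost too without the slide as a block, with only the arrays of these groups and without the filter on dim probes, and with normexp the value was 0.17. Psme3 had the lowest p among genes that were lower, at 9.77, 9.96, 9.80 and 9.67 in Ang II and 9.78, 9.74, 9.63 and 9.33 in Ang II+PD123319 (-0.18, adjusted p = 0.79). Slides 2 to 4 were lower and slide 1 was level. Only 10 of 45 members were above 0, against 48.5%, with a median of -0.03 beside -0.0038, and all 6 base ATPases were again below 0. Slide 4 moved furthest, with a members' median of -0.12 there against -0.01 to -0.02 on the other slides.

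Each antagonist group was also set against Control, which these comparisons share with Ang II x Control. With Losartan at 3 h, 14 of 44 members were called higher and 2 lower, against 10.4% and 11.3% of all genes. The members' median was 0.16 against -0.011, and 35 of 44 were above 0, against 48.5%. With quantile normalization the median was 0.08, with 8 members called higher and 2 lower. The alpha ring held 6 of the 14 calls, and all 7 of its genes were above 0, from 0.21 to 0.61 with a median of 0.33. The ring's median on the slides was 0.42, 0.57, 0.12 and 0.19, so that slides 1 and 2 carried most of it. At 3 h slides 1 and 2 were scanned on 1 day and slides 3 and 4 on another. Over all genes, the Ang II+Los arrays of slides 1 and 2 lay furthest from the 3 h means (root mean square 0.66 and 0.80). A part of the scan day or of these arrays in the result was not tested. The number of alpha ring calls was 2 without replicate 1, 3 without replicate 2, 3 under quantile normalization, 2 without the slides as a block and 1 with the arrays of these groups fitted alone. Psma3 measured 8.04, 8.35, 8.24 and 8.19 in Control and 8.48, 8.91, 8.36 and 8.69 in Ang II+Los. Its groups did not overlap, as for 0.837% of all genes, and its change of 0.41 ± 0.11 (adjusted p = 0.18) was called in all 12 other limma settings. The 2 genes lower were Psme3 (-0.39, adjusted p = 0.2) and Psmd11 (-0.58, adjusted p = 0.21), and both calls were lost without replicate 1 or without replicate 2. The count over all members was 5 to 15 as each replicate was left out in turn.

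With Losartan at 6 h, 12 of 45 members were called higher and 1 lower, against 10.6% and 11.3% of all genes, and the members' median was 0.03 against -0.0061. The lowest p values were those of Psmd5 (0.28, adjusted p = 0.071), Psmd3 (0.29, adjusted p = 0.087) and Psma2 (0.35, adjusted p = 0.096), and the gene lower was Psmb8 (-0.28, adjusted p = 0.15). The calls numbered 4 without replicate 2, 6 without replicate 4, 2 with only the arrays of these groups, 3 by the unpaired t-test, 7 by the paired one and 0 without the slide as a block. Psma2 and Psmb8 lost theirs without replicate 2 (0.26 and -0.19) and without replicate 4 (0.26 and -0.21). Psmb8 measured 10.75, 11.29, 10.79 and 11.44 with Losartan and 10.66, 11.34, 10.76 and 11.22 with PD123319, so all groups given Ang II lay close to each other and below Control on slides 2 and 4. Psmb1 and Psmd14 were above Control without overlap, against 0.912% of all genes. The alpha ring had 7 of 7 genes above 0 with a median of 0.17 and 3 calls.

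With PD123319 at 3 h, 2 of 44 members were called higher and none lower, against 2.74% and 4.86% of all genes. They were Psmd5 (0.73, adjusted p = 0.52) and Psma3 (0.24, adjusted p = 0.65). Psma3 was called in only 4 of 12 other limma settings and not without replicate 1, 2 or 4 (0.17, 0.24 and 0.20). Above 0 were 26 of 44, against 49.8%. The members' median of 0.02 changed sign with the scaling, to -0.0017 with the 75th percentile and -0.017 with quantile normalization. At 6 h, 4 of 45 were called higher and 5 lower, against 10.9% and 12.1%. Psmb11 had the lowest p (0.65, adjusted p = 0.052), with levels of 4.73, 4.60, 3.70 and 4.18 against 3.99, 3.83, 3.51 and 3.28 in Control. It may have passed the background filter through the Ang II+PD123319 group, where its mean was highest (4.30 against 3.65 in Control). This call is therefore not support for a change, and it rests on the brighter probe alone. Psmb11 was not called without the filter on dim probes (0.41) and was 0.21 with normexp. Psmg1 at 12.35, 12.18, 12.29 and 12.14 lay wholly below Control (-0.23, adjusted p = 0.083), and this was called in all 13 other limma settings. Psmg1, Psmb6 and Psmd4 were the 3 members below Control without overlap, against 1.37% of all genes. Psmb6 was called in only 3 of 12 other limma settings, and not with any replicate left out. Psmd4 was not called, and its highest array (11.9997) lay just below the lowest Control array (12.0011). Psmb8 was lower, at -0.35 (adjusted p = 0.09) and lost its call without replicate 4, at -0.23. The members' median of -0.02 was 0.02 with normexp.

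Core and regulatory genes were compared as the difference of their median log2 fold changes on each slide. In Ang II x Control the fitted medians were 0.11 for 17 core genes and 0.04 for 24 regulatory genes at 3 h, and 0.02 for 18 and 0.06 for 24 at 6 h. The difference of core minus regulatory was 0.07 at 3 h, with 0.07, -0.05, 0.03 and 0.01 on slides 1 to 4. It was -0.0419 with normexp and 0.016 to 0.0394 as each replicate was left out, lowest without replicate 2. At 6 h it was -0.04, with 0.03, -0.03, -0.01 and -0.13. In both cases the slides had both signs, with an SD between slides of 0.05 and 0.07. For Losartan against Ang II the 3 h difference of 0.09 came with -0.0076, 0.37, 0.0021 and 0.07, where slide 2 stood alone, and at 6 h it was 0.05 with -0.03, 0.06, 0.12 and 0.03. For PD123319 against Ang II it was 0.04 at 3 h and -0.01 at 6 h, with slides from -0.05 to 0.06 and from -0.04 to 0.04. All 6 comparisons had slides on both sides of 0.

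**Figure D5:**
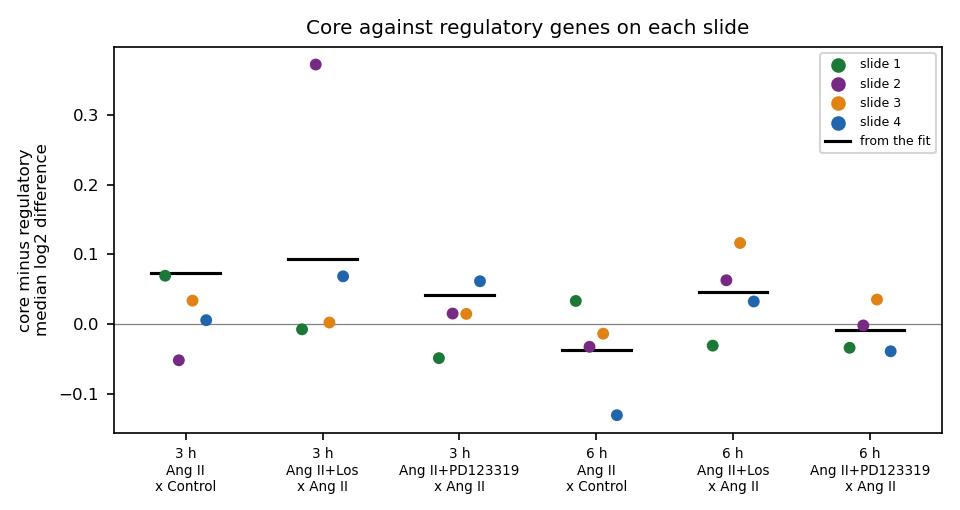
Core minus regulatory difference of median log2 fold changes on each slide (points) in 3 comparisons at 3 h and 6 h, with a bar for the value from the fit over all slides. Points of every comparison fall on both sides of 0, and the highest is 0.37 on slide 2 of the Losartan comparison at 3 h.

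The members varied more between slides than between groups. The slide accounted for a median of 66.8% of a member's variance at 3 h and 63.8% at 6 h, against 57.1% and 65.2% over all genes, and the group for 12.6% and 14.5%, against 13.5% and 9.92%. After slide and group were taken out, the remaining deviations of the core genes went together from array to array, with a mean pairwise correlation of 0.20 at 3 h and 0.26 at 6 h over 16 arrays. The same measure was 0.0093 and 0.09 for the regulatory genes and 0.0017 and 0.0025 for all genes, and without replicate 2 it was 0.26 and 0.30 for the core genes. These correlations are over arrays that share a normalization and are given as a description.

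Genes that work with the proteasome were taken from lists of associated factors, of shuttle and segregase proteins, of the NRF1 axis and of antigen processing. Of all genes, 5.35% were called higher and 7.37% lower at 3 h, and 10.6% and 10.9% at 6 h. Of the associated factors, 8 of 10 were on the array and none was called higher at 3 h of Ang II, while Adrm1, a ubiquitin receptor of the 19S particle (-0.41, adjusted p = 0.36), and Ube3c, a ubiquitin ligase bound to it (-0.28, adjusted p = 0.38), were called lower. At 6 h Adrm1 was the only one called, and it was higher (0.38, adjusted p = 0.15). None of the 10 shuttle and segregase genes was called at either time. Of the 10 NRF1 axis genes, Nfe2l1 itself was lower at 3 h (-0.45, adjusted p = 0.35) and at 6 h (-0.28, adjusted p = 0.18). On single slides its 3 h differences were 0.07, -0.86, -0.28 and -0.73. At 6 h, 2 genes of this list were higher and 2 lower, and Maff, a small Maf partner of NRF1, had the lowest p (0.65, adjusted p = 0.095). Of 8 antigen processing genes, Tap2, a subunit of the peptide transporter into the endoplasmic reticulum, was lower on every slide at 3 h (-0.82, adjusted p = 0.32) and at 6 h (-0.60, adjusted p = 0.14). Its partner Tap1 was lower at 6 h (-0.31, adjusted p = 0.16). Of these 8 genes 1 was called lower at 3 h and 3 at 6 h, and those called higher are not reported here. No gene of these lists had an adjusted p under 0.05 in Ang II x Control.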

How the data were processed

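RNA of C6 cells was measured on 32 one-colour arrays of a rat whole-genome design, 4 for each of 8 groups. Per the file headers, Agilent Feature Extraction 9.5.3.1 gave each spot an intensity from which background had been subtracted. The authors also deposited log2 values. These equalled the log2 of that intensity in 100% of 561803 values compared, within a tolerance of 1e-06, so no normalization between arrays had been applied. Of the deposited log2 values 38.2% are blank, and the column medians lie between 6.386 and 8.141.

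The scanner intensities were analysed. Spots that carried an outlier flag were dropped, dim spots at 3 h took the error of their signal, spots of a probe were averaged, and probes with more than 2 gaps were dropped. Arrays of each time were normalized by cyclic loess (span 0.7, 3 iterations). A gene is the mean of its probes that were well above background on 4 arrays of a group. limma 3.58.1 in R 4.3.3 was fitted to the 16 arrays of a time with the replicate number as a block, which is the slide, and p-values were adjusted by Benjamini and Hochberg over all genes. Same-numbered arrays deviated together from their group means. The lowest correlation was 0.147 for 1 pair at 3 h, and it was 0.429 or more for all pairs of the other slides. Such arrays share a slide, so these correlations cannot tell a pairing of samples from an effect of the slide. The labels do not say that replicates are separate cultures, so p-values measure the spread between these samples. Precision is limited by having 4 arrays a group. The median SE of a log2 fold change was 0.124 for members at 3 h and 0.0689 at 6 h. The script was tested on simulated data. Alternatives were other normalizations, background corrections, filters, probes and tests, and leaving out each replicate.

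The members and lists were chosen with earlier results of these data known. Values on every array are given for the gene with the lowest p in Ang II x Control in each role list at each time, for Psma1 and Psmd14, for the catalytic pairs, and for the member with the lowest p in each direction of the antagonist comparisons. Further genes were named because they were called or did not overlap, after their values were seen. Sequences were matched by symbol to a RefSeq table, with Python 3.11.15, pandas 2.3.3 and matplotlib 3.10.9. Results of some genes of the associated lists are not reported here.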

Additional observations from a re-analysis of the deposited data

Results flagged for a closer look

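In groups of 4 values, a value was set apart where its gap to the nearest of the others, as a share of the group's whole range, was above Dixon's critical value. Of 167 such groups examined 10 passed, and chance alone sets apart about 1 in 20. At 3 h, Control replicate 1 was high for Psma7 (0.933 of the range, at 12.82 against 12.43 to 12.46 in the other 3). Control replicate 2 was low for Psmb3 (0.852, at 11.02 against 12.25 to 12.46). Replicate 3 was low for Psmc3 in Control (0.966, at 11.5 against 12.47 to 12.5) and in Ang II+PD123319 (0.927, at 11.77 against 12.55 to 12.61), and for Psme2 in Ang II+Los (0.873, at 12.69 against 13.39 to 13.49). Psme3 stood high in Control replicate 3 (0.863, at 10 against 9.533 to 9.597) and low in Ang II+PD123319 replicate 4 (0.839, at 9.579 against 9.728 to 9.757). At 6 h, Psmd14 was low in Control replicate 2 (0.94, at 10.21 against 10.45 to 10.46). The members' median difference on single slides stood apart on slide 1 for Ang II against Control at 6 h (0.839, at -0.01448 against 0.03623 to 0.04598) and on slide 4 for PD123319 against Ang II at 6 h (0.923, at -0.1222 against -0.01785 to -0.009129).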

How the results depend on the processing

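The arrays limit these results to differences well above the SE, and dim members such as Psmb11 have only a rough level. No called difference of a named gene changed sign in the alternatives run for it. Under other settings 286 of these values kept the call and 153 lost it, and with a replicate left out 89 kept it and 75 lost it. Counts of members called under other settings are given without the share of all genes called under the same setting. They show how far the calls depend on the processing and are not read as results about the members.

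Without the replicate block the members called were 1 for Ang II at 3 h and 0 at 6 h, 1 in the difference between the times, 0 for Losartan against Ang II at 3 h, 0 for PD123319 against Ang II at 6 h, 6 and 0 for Losartan against Control at 3 h and 6 h, and 0 and 2 for PD123319 against Control. The paired t-test gave 0 for Ang II at 3 h, 3 for Losartan against Ang II at 6 h, 3 and 4 for PD123319 against Ang II, 2 and 7 for Losartan against Control, and 5 for PD123319 against Control at 3 h. The unpaired t-test gave 0 and 1 for Ang II, 1 in the difference between times, 0 and 2 for Losartan against Ang II, 0 for PD123319 against Ang II at 6 h, 3 and 3 for Losartan against Control, and 0 and 2 for PD123319 against Control. With only the arrays of the compared groups the counts were 2 and 7 for Ang II, 0 between times, 1 for Losartan against Ang II at 3 h, 1 and 0 for PD123319 against Ang II, 3 and 2 for Losartan against Control, and 4 for PD123319 against Control at 6 h. The deposited log2 values gave 2 and 7 for Ang II, 1 between times, 2 for Losartan against Ang II at 6 h, 2 for PD123319 against Ang II at 6 h, 10 and 7 for Losartan against Control, and 1 for PD123319 against Control at 3 h, where fewer genes without blanks were tested.

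The 75th percentile gave 1 between times, 2 for PD123319 against Ang II at 6 h and 1 for PD123319 against Control at 3 h. Quantile normalization gave 2 between times, 1 for Losartan against Ang II at 6 h, 10 for Losartan against Control at 3 h and 1 for PD123319 against Control at 3 h. Normexp gave 8 for Ang II at 3 h, 2 in each of the antagonist comparisons at 6 h, and 4 and 14 for PD123319 against Control. Requiring all 16 arrays above background gave 0 for PD123319 against Ang II at 6 h, no filter gave 1 and 0 there at 3 h and 6 h, and the brightest probe gave 1 for PD123319 against Control at 3 h. The cause of these shifts was not tested.

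The members' median for Ang II at 3 h was 0.0204 with the 75th percentile, -0.00046 with quantile normalization, 0.0883 with normexp, 0.0878 without a filter, 0.0914 with the brightest probe and 0.0251 with the deposited values. For Losartan against Ang II it was 0.21 at 3 h with the 75th percentile, and at 6 h 0.0408 with the 75th percentile, 0.0367 with quantile normalization and 0.011 with normexp. Core minus regulatory was -0.0419 with normexp for Ang II at 3 h and -0.0116 with the deposited values for PD123319 against Ang II at 3 h.

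As each replicate was left out, the counts at 3 h and 6 h ranged from 1 to 4 and 2 to 10 for Ang II, 0 to 4 and 0 to 2 for Losartan against Ang II, 0 to 0 and 0 to 1 for PD123319 against Ang II, 5 to 15 and 4 to 14 for Losartan against Control, and 1 to 3 and 4 to 9 for PD123319 against Control, with 1 to 4 between times. The medians ranged from 0.0553 to 0.11 and 0.0167 to 0.0267 for Ang II, 0.0134 to 0.118 and 0.0133 to 0.0382 for Losartan against Ang II, -0.06 to -0.04 and -0.05 to -0.0056 for PD123319 against Ang II, 0.11 to 0.20 and 0.03 to 0.07 for Losartan against Control, and 0.01 to 0.06 and -0.04 to -0.0073 for PD123319 against Control. Core minus regulatory ranged from 0.016 to 0.0394 and -0.077 to -0.0073 for Ang II, 0.05 to 0.15 and 0.02 to 0.06 for Losartan against Ang II, and 0.0087 to 0.06 and -0.02 to 0.01 for PD123319 against Ang II.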

Other observations

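Psmb8 split by replicate number rather than by group, on the separate slides of 3 h and of 6 h. At 3 h its log2 level was 9.91 and 10.55 on Control replicates 1 and 3 and 11.47 and 11.31 on Control replicates 2 and 4. With Losartan it was 10.32 and 10.42 against 10.65 and 11.05 on the same replicates, and with PD123319 it was 10.18 and 10.52 against 11.24 and 11.14. At 6 h the Control levels were 10.73 and 10.88 against 11.83 and 11.94. In all 8 groups replicates 2 and 4 were above replicates 1 and 3, and the slide accounted for 84.2% of the variance of Psmb8 at 3 h and 81.5% at 6 h, against 2.73% and 10.8% for the group.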
